A study of Caenorhabditis elegans with 30 samples.

Results

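The 75 genes described here encode proteins of the cytosolic ribosome of the nematode *Caenorhabditis elegans*, 44 of the large subunit and 31 of the small subunit. They were chosen by name: a probe set had to carry a single gene symbol made of rpl or rps, a hyphen and a number, with a second number or a letter where copies exist. Each of the 75 had 1 probe set, and they stand among 25902 genes that a probe set names alone. Mitochondrial ribosomal protein genes, named mrpl and mrps, were kept apart. By RefSeq's symbols 3 further ribosomal protein genes exist under other names on the array (Y37E3.8, W01D2.1 and ubl-1) and are not counted. Conversely, rpl-24.2 carries the RefSeq symbol rsl-24D1, whose human counterpart assists in assembling the large subunit and is absent from the finished ribosome. It was kept because the rule selects it, and the counts below change by at most 1 gene without it.

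Each ribosomal protein is used once in nearly every ribosome, so cells make the messenger RNAs of the set at high and matched levels, and growing tissues such as the germ line make the most. In *C. elegans* most of the proteins come from a single gene, and only a few have a second copy. Building ribosomes is among the costliest things a cell does, and cells under nutrient or protein-folding stress are known to lower the output of these genes or the translation of their mRNAs.

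Total RNA of whole animals was hybridised to 30 Affymetrix arrays, 3 in each of 10 groups. All animals grew from the first larval stage on medium with 25 µg/mL carbenicillin and 1 mM IPTG, the inducer of the RNAi vector, and were collected when most were young adults. Mutants lacking pek-1, ire-1 or atf-6 were each given RNAi against pmt-2 or the empty vector. A pmt-2 mutant received the vector, and wild-type N2 animals received pmt-2 RNAi, tunicamycin or the vector. The labels call the mutants knockouts and name no allele. pmt-2 encodes a methyltransferase that worms need to make phosphatidylcholine, the most common phospholipid of their membranes. IRE-1, PEK-1 and ATF-6 are the 3 sensors of the unfolded protein response in the endoplasmic reticulum. Of these, PEK-1 is the kinase that slows translation initiation and IRE-1 the nuclease that splices xbp-1 mRNA. Tunicamycin, which blocks N-glycosylation, was applied to collected animals in M9 buffer (25 µg/mL, 4 hours). The labels list tunicamycin among the reagents of every group, but describe the drug step and the buffer for this group alone. The effect of the buffer cannot be told apart from the drug's. The source labels of the wild-type RNAi and tunicamycin arrays are exchanged relative to their titles, and the titles were followed.

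Values are log2 signals after RMA, a method that brings all arrays to the same distribution, so a change is relative to the rest of the RNA on the array. Changes below are differences of group means on this log2 scale with their standard error (SE). The test is limma's moderated test in 1 fit over all 10 groups, adjusted over 28387 probe sets by the Benjamini-Hochberg method, and "rose" and "fell" mean an adjusted p under 0.05. Nothing in the labels ties the arrays to separate cultures. Each p-value thus reflects spread among arrays of the same group, which may be technical, pooled over all 10 groups. The arrays of wild type with pmt-2 RNAi varied more than the others, so p-values that use them can rest on a spread smaller than their own. With 3 arrays in a group precision is also limited by their number. pmt-2 itself averaged 6.63 ± 0.17 in wild type with RNAi and 4.70 ± 0.18 in the pmt-2 mutant, against 10.14 ± 0.07 in wild type with vector (SD, n = 3 each). With vector, ire-1 averaged 6.19 in its mutant and pek-1 averaged 6.74 in its own, against 8.66 and 7.59 in wild type. With RNAi they averaged 6.02 and 7.70 in these mutants, against 8.78 and 8.72 in wild type. atf-6 averaged 7.28 in its mutant and 7.51 in wild type, both with vector, and its probe set does not tell these groups apart. With RNAi it averaged 8.54 in its mutant and 8.20 in wild type. The 3 arrays of wild type with pmt-2 RNAi were the least alike: arrays 1 and 2 correlated at 0.966 and 0.958 with the mean of the other two, against 0.985 or more for the arrays of the other 9 groups. Of the 3, the second read lowest for germ line markers and highest for hypodermal markers, and counts that rest on these arrays are also given with 1 of them left out at a time.

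The set was among the brightest on the array. Averaged over the 30 arrays, the large subunit genes had a median log2 signal of 10.6 and the small subunit genes 11.12, against 3.86 for all probe sets. A mean of at least 10 was reached by 28 of the 44 large subunit genes and 24 of the 31 small subunit genes, and by 632 probe sets of 28387. Signals of different probe sets depend on the probes as well as on the RNA, so this order is one of signals and not of transcript numbers. The brightest large subunit probe sets were rpl-17 and rpl-2 (RefSeq rpl-8), at 12.62 and 12.27. The brightest of the small subunit were rps-4 and rps-8, at 12.95 and 12.40. At the other end, rpl-42 and rpl-29 averaged 3.60 and 3.70, at about the median of a whole array (3.74 to 3.89), and were the only 2 under 5. The dimmest small subunit probe sets were rps-22 (RefSeq rps-15A) and rps-11, at 6.11 and 8.82.

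rps-4 ranged over 0.18 between its highest and lowest group means, in the pmt-2 mutant and with tunicamycin, and did not differ over the 10 groups (limma F test, adjusted p = 0.214). rpl-17 ranged over 0.35, from tunicamycin at the low end to the ire-1 mutant with RNAi at the high end (limma F test, adjusted p = 0.0164). The widest ranges belonged to rpl-11.1 at 2.80, rpl-11.2 at 1.68, rpl-25.1 and rpl-24.2 at 1.65 each and rpl-42 at 1.00. By the same F test 52 of the 75 genes differed somewhere among the groups, 69.3% of the set, while 70.5% of all probe sets did. The share in the set was thus near that of the whole array.

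**Figure D1:**
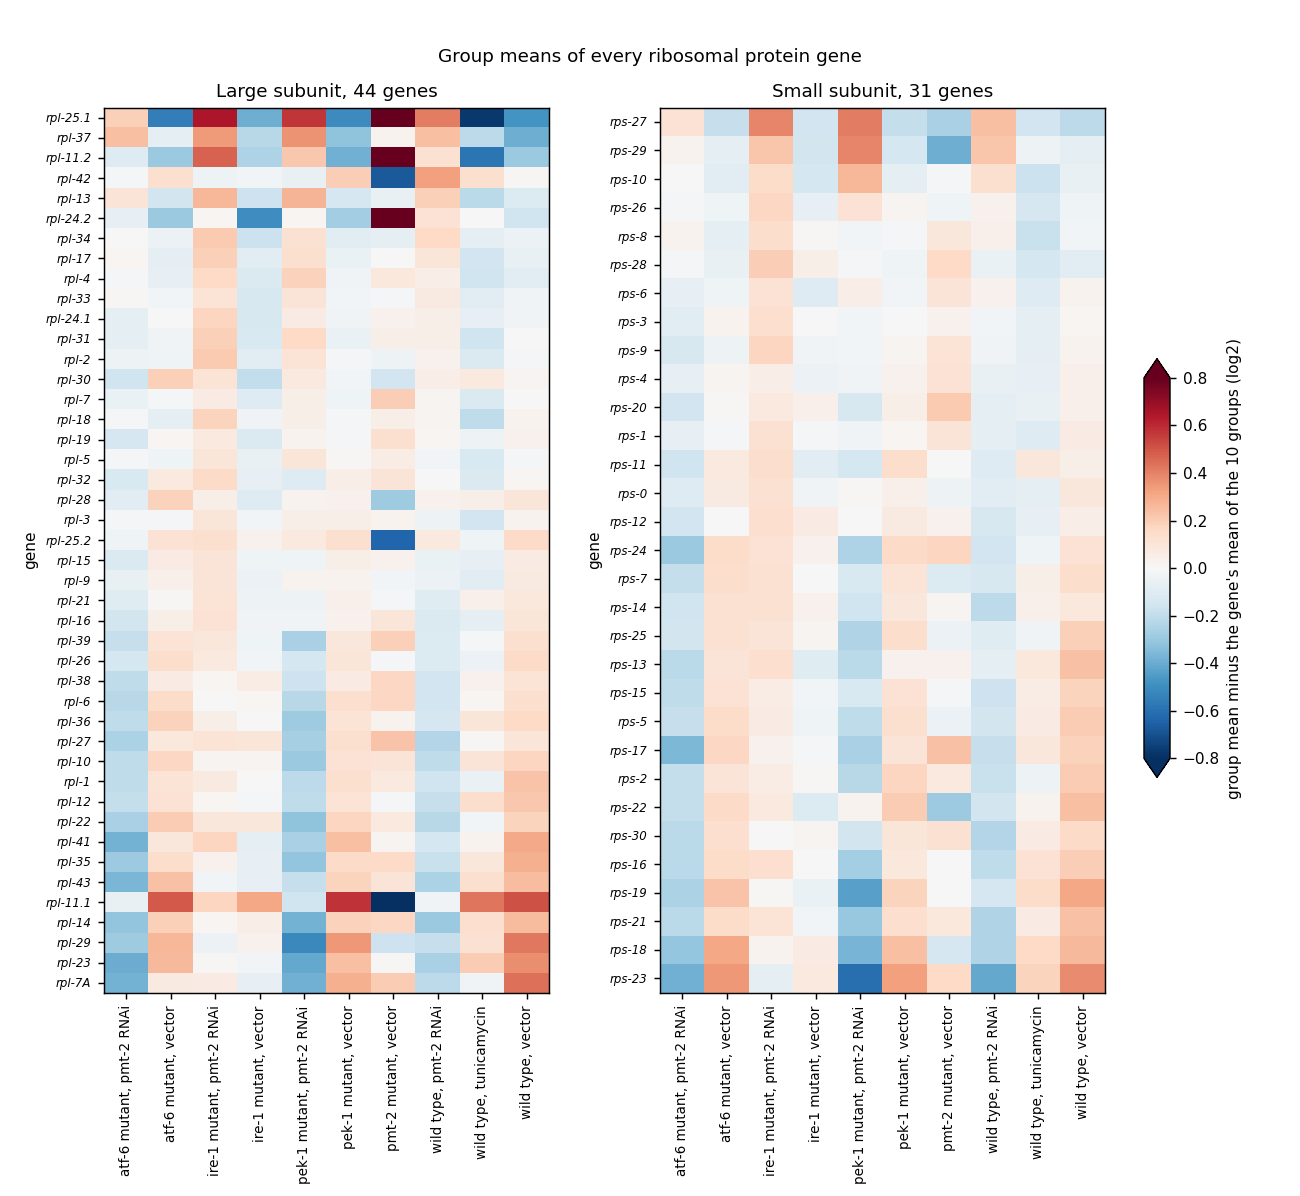
Group mean of each ribosomal protein gene minus its mean over the 10 groups (log2, colour, which saturates at 0.8 on either side), with genes down the page in the order of their response to pmt-2 RNAi in wild type and groups across. The pmt-2 mutant column is pale apart from rpl-11.1, rpl-25.2, rpl-11.2, rpl-25.1, rpl-24.2 and a few others, while the RNAi columns of wild type, atf-6 and pek-1 animals are blue over the lower part of both panels.

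The first question is what loss of pmt-2 by RNAi did to the set in wild type. More of the genes fell than rose: 31 fell, 16 of the large and 15 of the small subunit, and 5 rose, all of the large subunit. Of all 28387 probe sets 17.7% fell and 15.6% rose (33.3% in either direction), against 41.3% and 6.67% of the ribosomal protein genes. Of those probe sets 18062 had a mean under 5, as did 2 of the 75 genes. Shares here and below were not compared at equal signal. The median change was -0.10 over the large subunit and -0.27 over the small subunit, against -0.09 over all probe sets. The falls were small, the largest being 1.73-fold.

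rps-23, a small subunit protein of the decoding centre, fell most. It read 9.84, 10.04 and 9.59 in wild type with RNAi, against 10.57, 10.72 and 10.54 with vector. The groups did not overlap, and the change was -0.79 (SE 0.12, limma adjusted p = 1.14e-05). rpl-7A read 8.84, 9.19 and 8.84 with RNAi, against 9.65, 9.75 and 9.43 with vector. All RNAi arrays lay below all vector arrays, with a change of -0.65 (SE 0.10, limma adjusted p = 2.55e-05). rpl-23, a large subunit protein, read 7.27, 7.32 and 7.27 with RNAi, against 7.87, 7.95 and 7.94 with vector. It had the tightest groups of these genes, and its change was -0.63 (SE 0.09, limma adjusted p = 6.95e-06).

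Copies from 2 duplicated genes were among the rises. rpl-25.1, 1 of 2 genes for the protein that lines the exit of the peptide tunnel and docks the signal recognition particle, read 9.0, 9.57 and 9.47 in wild type with RNAi, against 8.43, 8.43 and 8.51 with vector. It rose by 0.89 (SE 0.14, limma adjusted p = 1.26e-05), with no overlap. rpl-11.2, a copy of the protein that binds 5S ribosomal RNA, read 9.17, 9.89 and 9.43 with RNAi, against 8.99, 9.28 and 8.96 with vector. Here the groups overlapped, and the rise of 0.42 (SE 0.14, limma adjusted p = 0.0219) was lost in 4 of the alternative settings. rpl-37 rose by 0.62 (SE 0.23, limma adjusted p = 0.0353), with 11.09, 11.29 and 11.30 with RNAi against 10.42, 10.77 and 10.62 with vector, and its call was lost in 6. The other rises were rpl-13 at 0.30 and rpl-24.2 at 0.27.

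The wild-type RNAi arrays varied more than those of any other group, with a median SD of 0.20 over probe sets of mean 5 or more, against 0.09 to 0.13 in the other groups. When the variance came from these 2 groups alone, 10 of the 75 genes passed, 8 of them lower. Without RNAi array 2, 33 genes fell and 2 rose, without RNAi array 1, 30 fell and 9 rose, and without RNAi array 3, 31 fell and 4 rose. Other cell types moved too. All 20 germ line and oocyte markers were measured, and 13 fell, with a median change of -0.49. Their summed linear signal was 25121 to 40247 with RNAi and 40559 to 42910 with vector. Of 18 neuronal markers 17 rose, with a median of 1.29 and a summed signal of 8655 to 11279 with RNAi and 4370 to 4509 with vector. Of 8 hypodermal markers 7 rose, by a median of 1.32. Of 9 sperm markers 5 rose and none fell, with a median of 0.52, and 5 of the 9 averaged under 5 with vector. With 1 RNAi array left out, 9 to 14 germ line markers fell, 13 to 17 neuronal markers rose and 3 to 8 hypodermal markers rose, in each case least without array 2. In RNA of whole animals fewer cells of a type and less RNA per cell cannot be told apart, and the part of these tissues in the ribosomal protein changes was not tested.

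**Figure D2:**
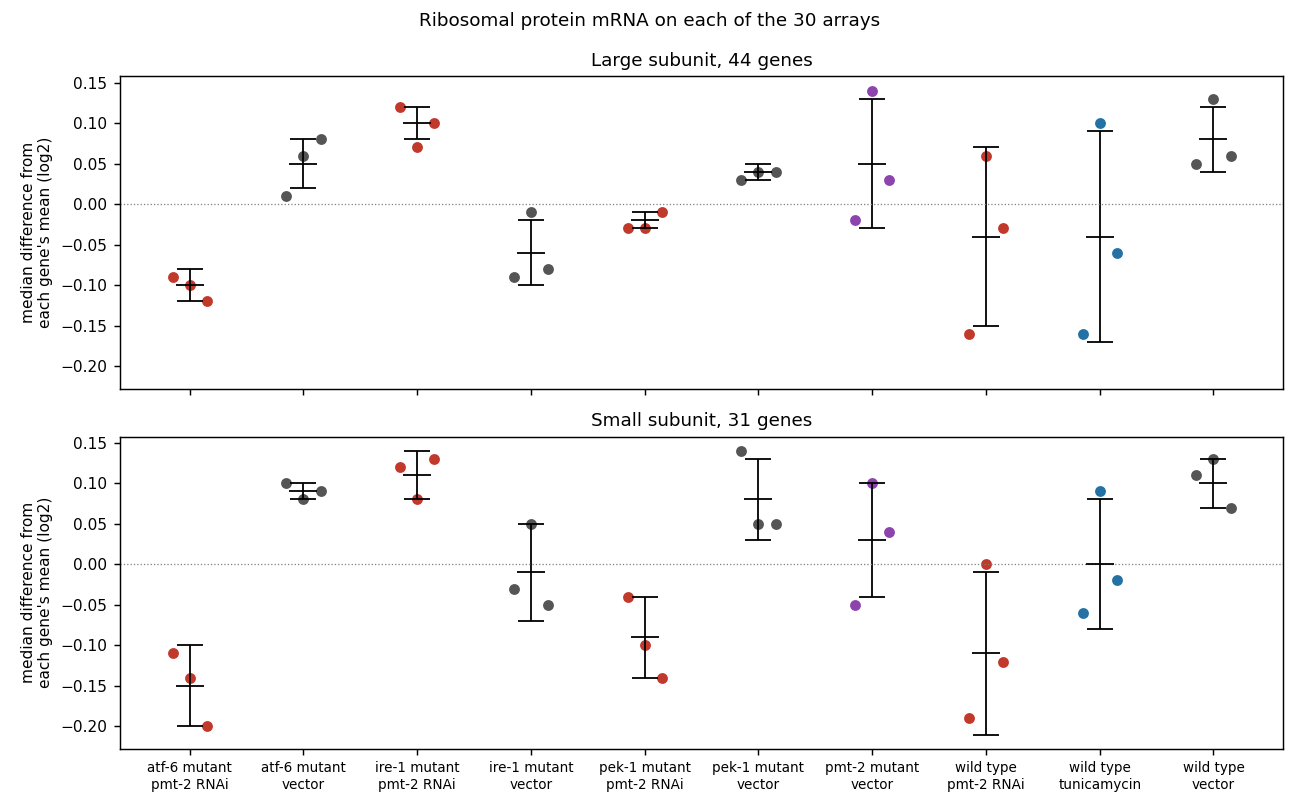
Median over the large subunit genes (upper panel) and the small subunit genes (lower panel) of each gene's log2 signal minus its own mean over the 30 arrays, 1 point per array, with group mean and SD as bars, by group. Arrays of the ire-1 mutant with RNAi lie between 0.07 and 0.13 in both panels, above the arrays of that mutant with vector, whereas in the atf-6 and pek-1 mutants the RNAi arrays lie below their vector arrays.

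The same RNAi was given to the 3 sensor mutants, each with its own vector control. In the atf-6 mutant 34 genes fell and 2 rose, where 16.1% of all probe sets fell and 13.8% rose (29.9% in either direction). In the pek-1 mutant 31 fell and 9 rose, where 25.2% of all probe sets fell and 18.7% rose (43.9% in either direction). Given to the ire-1 mutant, the RNAi was followed by no fall and 15 rises, 11 of the large and 4 of the small subunit, where 13.8% of all probe sets fell and 14.3% rose (28.1% in either direction). At an unadjusted p under 0.05 there were 0 falls and 23 rises in the ire-1 mutant, where 38.1% of all probe sets passed in either direction, and 0 falls by limma rebuilt from the authors' group means and SDs. The set's median change was -0.20 for atf-6, -0.16 for pek-1 and 0.13 for ire-1 animals, and 65 of the 75 differences were above 0 in the last. Tissue markers moved in these comparisons too. Of the 20 germ line markers 8 fell and 1 rose in the atf-6 mutant, 14 fell in the pek-1 mutant and 8 fell in the ire-1 mutant. Of the 9 sperm markers 3 rose in the atf-6 mutant, 6 in the pek-1 mutant and 6 in the ire-1 mutant, and none fell. Of the 18 neuronal markers 13 rose in the atf-6 mutant and 16 in each of the other two. All 8 hypodermal markers rose in each, by a median of 1.74 in atf-6, 3.67 in pek-1 and 1.54 in ire-1 animals. Their part in the ribosomal protein changes was not tested.

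Which genes fell was largely shared where the controls were separate arrays. All 31 genes that fell in wild type also fell in the atf-6 mutant, where they made up 91.2% of the falls. In the pek-1 mutant 29 of them fell, 93.5% of the falls in either list. The same overlap over all probe sets was not counted, so the sharing is not shown to be particular to this set. Over the 75 genes the response in wild type correlated with that in the atf-6 mutant at r = 0.94, with that of pek-1 animals at r = 0.95 and with that of ire-1 animals at r = 0.83. These are correlations across genes, which are not independent, of arrays made with 1 platform and normalised together, and over 10325 probe sets of mean 5 or more the values were 0.95, 0.92 and 0.78.

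rps-23 was the largest fall again in both mutants. In the atf-6 mutant it read 10.02, 9.87 and 9.64 with RNAi, against 10.71, 10.50 and 10.52 with vector, a change of -0.73 (SE 0.12, limma adjusted p = 3.77e-05). In the pek-1 mutant it read 9.72, 9.52 and 9.65 with RNAi, against 10.70, 10.42 and 10.55 with vector, a change of -0.93 (SE 0.12, limma adjusted p = 6.44e-07). In both, the RNAi arrays all lay below the vector arrays. Next in the atf-6 mutant were rpl-23 at -0.66 and rps-18, a protein of the head of the small subunit, at -0.62. Next in the pek-1 mutant were rpl-29 at -0.87, whose signal of 3.19 with RNAi and 4.05 with vector is near the array median, and rpl-11.1 at -0.74.

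rpl-25.1 and rpl-13 were the 2 genes that rose in all 4 genotypes. The call of rpl-13 in the atf-6 mutant (0.25, limma adjusted p = 0.0191) was lost in 4 alternative settings, among them without vector array 2 or RNAi array 3 of that mutant, with adjusted p up to 0.125. rpl-25.1 rose by 0.74 in atf-6, 1.07 in pek-1 and 1.04 in ire-1 animals, and by 0.89 in wild type. In the ire-1 mutant it read 9.49, 9.62 and 9.67 with RNAi, against 8.37, 8.74 and 8.55 with vector (SE 0.14, limma adjusted p = 6.39e-06). rpl-11.2 read 9.80, 9.77 and 9.97 there with RNAi, against 9.06, 9.30 and 9.05 with vector, without overlap, a rise of 0.71 (SE 0.14, limma adjusted p = 0.000592). rps-27 read 11.36, 11.41 and 11.46 with RNAi, against 10.64, 10.99 and 10.97 with vector, a rise of 0.54 (SE 0.18, limma adjusted p = 0.0232) whose call was lost in 4 settings. The other 12 rises in the ire-1 mutant lay between 0.22 for rps-6 and 0.50 for rpl-24.2. In the pek-1 mutant rps-27 rose by 0.60 and rpl-37 by 0.67, calls lost in 2 and 3 settings.

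rpl-37 and rps-27 were among the least repeatable genes, with pooled SDs between arrays of a group of 0.29 and 0.22. In the vector groups of wild type and the 3 sensor mutants, array 1 was the lowest for both genes. With tunicamycin, array 1 read 10.07 for rpl-37 and 10.34 for rps-27, against 10.93 to 11.34 and 10.89 to 11.38 on the other two. Their rises in the RNAi comparisons carry that spread.

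**Figure D3:**
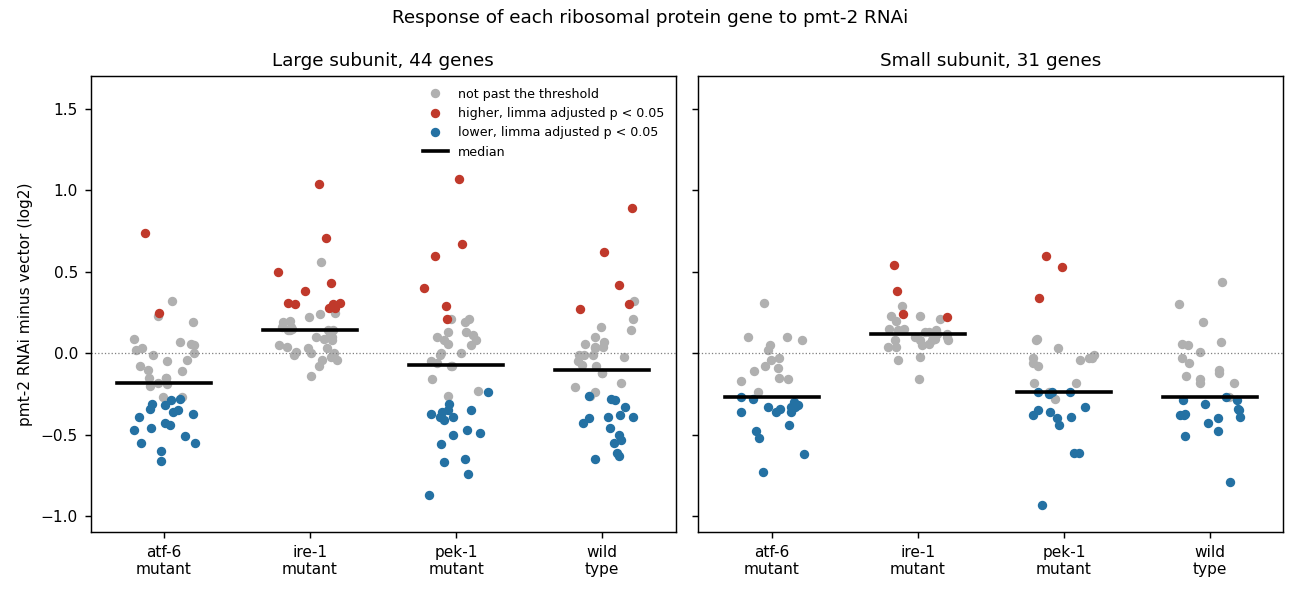
Change of each ribosomal protein gene with pmt-2 RNAi minus vector (log2) in the 3 sensor mutants and wild type, 1 point per gene, spread sideways only for visibility; colour marks limma's call and the bar the median. The blue points below 0 in the atf-6 mutant, the pek-1 mutant and wild type have no counterpart in the ire-1 mutant, whose medians are 0.14 and 0.12.

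A difference of differences tested whether a mutant and wild type responded unequally to the RNAi. For the ire-1 mutant 24 of the 75 genes differed, 11 of the large and 13 of the small subunit, and all 24 had the higher, that is the less negative or more positive, response in the mutant. Of all probe sets 6.25% differed, 3.12% with the higher and 3.14% with the lower response in the mutant, against 32% of the ribosomal protein genes. The median difference was 0.26 over the large subunit and 0.38 over the small subunit, against 0.02 over all probe sets, and 73 of the 75 differences were above 0. For the atf-6 mutant limma passed 0 of the 75 genes, where 0.0282% of all probe sets passed. At an unadjusted p under 0.05 it passed 1 gene, where 6.87% of all probe sets passed. For the pek-1 mutant it again passed 0, where 1.24% of all probe sets passed (1.02% higher and 0.225% lower in the mutant), and 1 gene at an unadjusted p under 0.05, where 12.5% of all probe sets passed. The rebuilt limma passed 0 in both. These tests compare each mutant with wild type and not the mutants with each other.

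rpl-7A showed the largest difference. In the ire-1 mutant it read 9.18, 9.17 and 9.33 with RNAi, against 9.13, 9.08 and 9.10 with vector, while in wild type the same comparison gave the fall described above. The difference of 0.78 (SE 0.15, limma adjusted p = 0.00126) combines a response of 0.13 in the mutant and -0.65 in wild type. rpl-41 (RefSeq rpl-36A) read 8.89, 8.76 and 8.93 in the ire-1 mutant with RNAi, against 8.53, 8.72 and 8.61 with vector. In wild type it read 8.38, 8.66 and 8.63 with RNAi, against 8.88, 9.23 and 8.84 with vector. Its responses of 0.24 and -0.43 differed by 0.67 (SE 0.17, limma adjusted p = 0.0145), a call lost in 3 settings. rpl-23 read 7.60, 7.55 and 7.53 in the ire-1 mutant with RNAi, against 7.62, 7.53 and 7.45 with vector, which overlap. Its response of 0.03 differed from the -0.63 of wild type by 0.66 (SE 0.13, limma adjusted p = 0.0019).

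All 24 were among the 31 genes that fell in wild type, from arrays the test itself uses, and 0 of them passed in the ire-1 mutant in either direction. Their responses in that mutant ran from -0.16 for rps-23 to 0.24 for rpl-41. 4 genes rose in both genotypes, and the difference was 0.15 for rpl-25.1 (limma adjusted p = 0.78), 0.13 for rpl-13 (limma adjusted p = 0.657), 0.29 for rpl-11.2 (limma adjusted p = 0.518) and 0.23 for rpl-24.2 (limma adjusted p = 0.422).

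**Figure D4:**
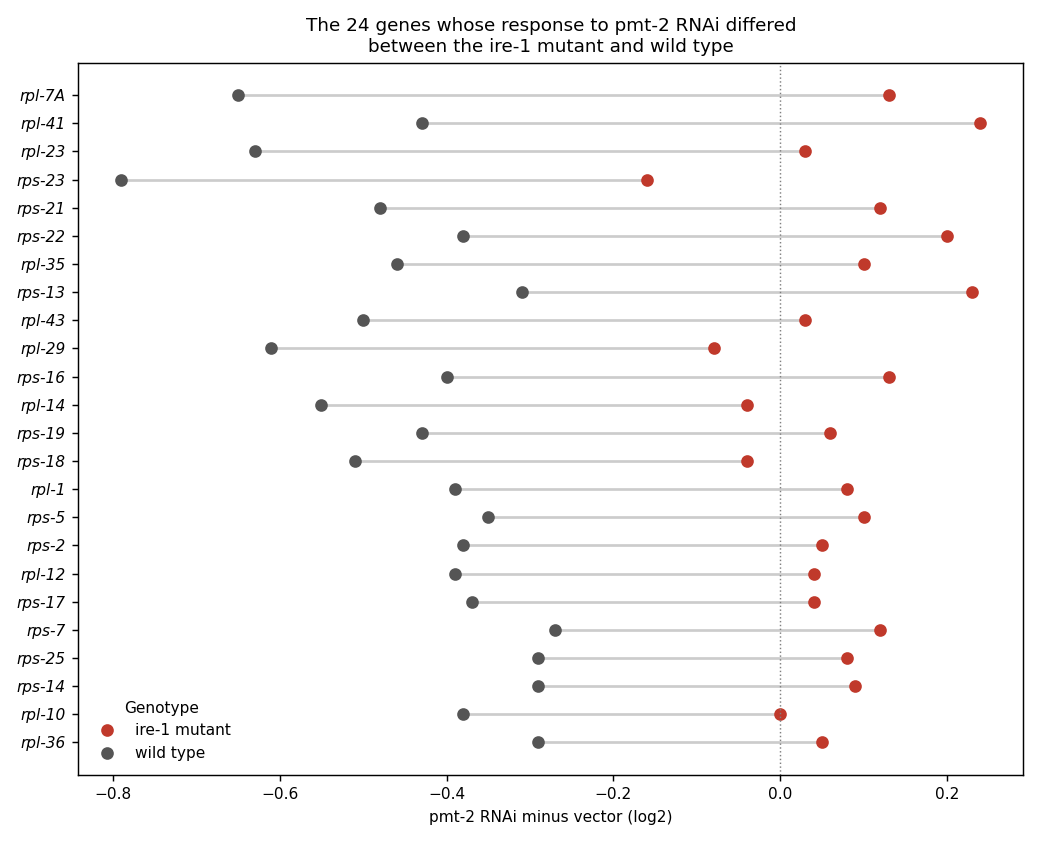
Response to pmt-2 RNAi (RNAi minus vector, log2) of ire-1 mutant and wild-type animals for the 24 ribosomal protein genes that differed in limma's test of the difference, from the largest at the top to the smallest at the bottom. The ire-1 mutant points lie between -0.16 and 0.24 and the wild-type points between -0.79 and -0.27.

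Several measurements moved with this difference. The knock-down was shallower in the ire-1 mutant: pmt-2 read 7.52, 7.54 and 7.35 there with RNAi and 9.66, 9.69 and 9.60 with vector, a change of -2.18, against -3.51 in wild type. These 2 changes differed by 1.33 (SE 0.16, limma adjusted p = 3.55e-06). In the pek-1 mutant, where 31 genes fell, pmt-2 changed by -2.90. The starting point differed as well. With vector, 7 of the 75 genes fell in the ire-1 mutant relative to wild type and none rose, where 3.18% of all probe sets fell and 2.98% rose (6.16% in either direction), and 68 of the 75 differences were below 0, with a median of -0.12. rpl-7A read 9.13, 9.08 and 9.10 in the ire-1 mutant, against 9.65, 9.75 and 9.43 in wild type, a change of -0.51 (SE 0.10, limma adjusted p = 0.00296) with no overlap. rpl-29 and rpl-23 fell by 0.39 each, calls lost in 5 and 2 settings. Of the tissue markers, 4 of 8 hypodermal markers rose in this comparison (median 1.40), 3 of 18 neuronal markers rose and 2 of 9 intestinal markers fell. The 3 arrays of wild type with vector enter both the difference of responses and this comparison. The part of the knock-down, of the starting level and of these tissues in the difference was not tested.

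Of the 20 germ line markers 8 fell with RNAi in the ire-1 mutant, by a median of -0.41, and the responses of 2 differed from wild type, with a median difference of 0.06. Muscle markers differed by a median of 0.47, 1 of 10 past the threshold, and neuronal markers by -0.43, 2 of 18 past it. With 1 array of wild type with RNAi left out, the median difference ran from -0.22 to 0.26 for germ line, from 0.38 to 0.63 for muscle and from -0.58 to -0.30 for neuronal markers, of which 1 to 7 passed. The count of 24 depends on the variance and on single arrays. With the variance of the 4 groups alone 3 genes passed, and with limma rebuilt from the deposited means and SDs 9 passed. Leaving out 1 array at a time left 9 to 30 genes, the lowest without array 2 of wild type with vector and the highest without array 2 of wild type with RNAi, and all of them had the higher response in the mutant. Without array 1 or array 3 of wild type with RNAi 10 and 11 genes passed.

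The atf-6 and pek-1 mutants with vector showed no gene of the set past the threshold against wild type with vector, where 0.194% of all probe sets passed for atf-6 (0.081% higher and 0.113% lower) and 0.113% for pek-1 (0.0705% higher and 0.0423% lower). In each, 1 gene had an unadjusted p under 0.05 by limma, where 10.1% and 8.47% of all probe sets did, and the rebuilt limma passed 0.

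Tunicamycin is the positive control of the study for the unfolded protein response. It moved few of the genes: 3 of 75 fell and none rose, where 8.37% of all probe sets fell and 8.24% rose (16.6% in either direction). rpl-7A read 9.21, 9.11 and 9.11 with tunicamycin, against 9.65, 9.75 and 9.43 with vector, a change of -0.47 (SE 0.10, limma adjusted p = 0.00202) without overlap. rpl-1 (RefSeq rpl-10a), the protein of the mobile L1 stalk, fell by 0.28 (SE 0.08, limma adjusted p = 0.0119), a call lost in 3 settings. rpl-29, at a signal near the array median, differed by -0.30 (limma adjusted p = 0.0384), and its call was lost in 8 settings, without any 1 of the 6 arrays among them. The other differences were small and mostly in 1 direction: 68 of the 75 were below 0, with a median of -0.11 and a range of -0.47 to 0.18. The call count was 10 among probe sets of mean 5 or more and 0 with the variance of the 2 groups alone. Tissue markers moved here as well: 8 of 10 muscle markers fell (median -0.77), and 5 of 9 sperm, 5 of 9 intestinal, 3 of 8 hypodermal, 4 of 18 neuronal and 2 of 20 germ line markers fell, while 2 intestinal, 1 hypodermal and 1 neuronal marker rose. Their part in the ribosomal protein changes was not tested.

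Tunicamycin and pmt-2 RNAi were also compared with each other in wild type. The tunicamycin arrays were higher for 19 genes and lower for 8, where 22.2% of all probe sets were higher and 17.5% lower (39.7% in either direction). With each array centred on its median the split was 23 higher and 3 lower. Single arrays moved it as well: it was 11 higher and 11 lower without RNAi array 1, 23 and 3 without RNAi array 2, 15 and 4 without RNAi array 3, and 13 and 15 without tunicamycin array 2. rpl-25.1 read 7.87, 8.37 and 8.28 with tunicamycin, against 9.0, 9.57 and 9.47 with RNAi, a change of -1.17 (SE 0.14, limma adjusted p = 1.94e-07). rpl-11.2 was lower by 0.71, and rps-23, rpl-23 and rpl-11.1 were higher by 0.59, 0.46 and 0.46. In all 5 the groups did not overlap.

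In the pmt-2 mutant, which the labels give as a control for the RNAi, 3 genes rose and 14 fell against wild type with vector, where 28.4% of all probe sets rose and 30.8% fell (59.2% in either direction). In either direction 22.7% of the set passed, and its median change was -0.04, against -0.13 over all probe sets. Centring each array on its median moved all probe sets by -0.13, and 3 genes then rose and 30 fell.

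Of all differences of these genes in the 14 comparisons, that of rpl-11.1 in the pmt-2 mutant was the largest. rpl-11.1 read 8.77, 9.14 and 8.89 in the pmt-2 mutant, against 11.72, 11.64 and 11.65 in wild type with vector. It fell by 2.74 on the log2 scale, or 6.66-fold (SE 0.09, limma adjusted p = 7.75e-19). Its copy rpl-11.2 read 10.39, 10.59 and 10.43 in the mutant, against 8.99, 9.28 and 8.96, and rose by 1.39 (SE 0.14, limma adjusted p = 2.4e-09). For both genes all mutant arrays lay to 1 side of all wild-type arrays, in opposite directions.

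The second pair of copies moved in the same opposed way. rpl-25.1 read 9.84, 9.92 and 9.72 in the pmt-2 mutant, against 8.43, 8.43 and 8.51 in wild type with vector, and rose by 1.37 (SE 0.14, limma adjusted p = 1.76e-09). rpl-25.2 read 9.29, 9.75 and 9.31, against 10.06, 10.34 and 10.31, and fell by 0.79 (SE 0.13, limma adjusted p = 8.98e-06). Again neither pair of groups overlapped. rpl-24.2, the assembly factor by its RefSeq name, read 8.63, 8.78 and 8.66 in the mutant, against 7.40, 7.27 and 7.47, and rose by 1.31 (SE 0.10, limma adjusted p = 5.28e-12). rpl-24.1, which encodes the ribosomal protein proper, differed by 0.07 (SE 0.08, limma adjusted p = 0.5). The remaining falls in the mutant ran from -0.68 for rpl-42, near the array median, to -0.22 for rpl-12.

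The difference between 2 copies on the same array removes what all signals of that array share. For rpl-11.1 minus rpl-11.2 it was -1.62, -1.45 and -1.54 in the pmt-2 mutant, 1.64 ± 0.36 in wild type with RNAi and 2.59 ± 0.20 in wild type with vector (SD, n = 3). For rpl-25.1 minus rpl-25.2 it was 0.37 ± 0.19 in the mutant, -0.81 ± 0.22 with RNAi and -1.78 ± 0.14 with vector. In both pairs the brighter probe set of the vector arrays became the dimmer one in the mutant. The RNAi arrays lay between, with a fall of rpl-11.1 by 0.53 and a rise of rpl-25.1 by 0.89, while rpl-25.2 differed by -0.08 (limma adjusted p = 0.676). The 2 probe sets of a pair differ in their probes, so the values show unequal change and not which copy was the more abundant. How far a probe set also binds the mRNA of the other copy is not known here.

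**Figure D5:**
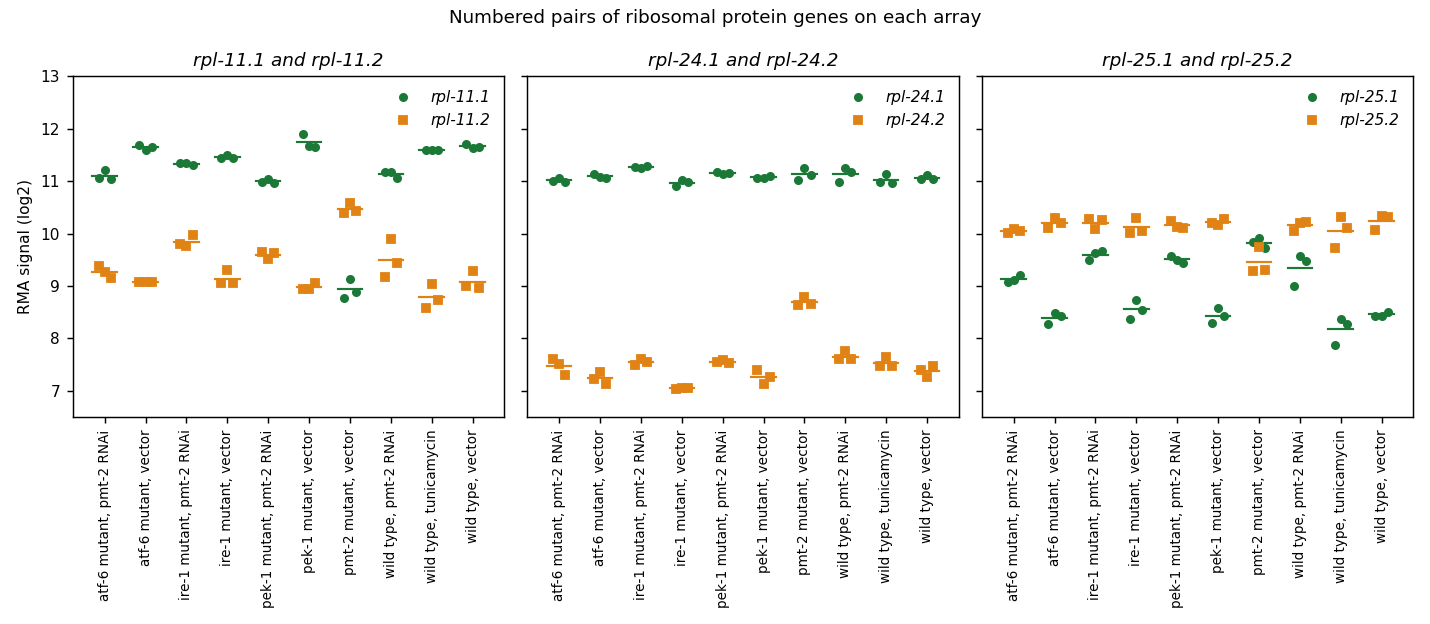
RMA log2 signal of each array (points, with group means as lines) for rpl-11.1 and rpl-11.2, rpl-24.1 and rpl-24.2, and rpl-25.1 and rpl-25.2, by group. In the pmt-2 mutant rpl-11.2 lies above rpl-11.1 and rpl-25.1 above rpl-25.2 by the group means, the reverse of the other 9 groups, and rpl-24.2 is at its highest.

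Germ line markers were at their lowest in the same mutant. All 20 fell, by a median of -6.02, and their summed signal was 573 to 629 in the pmt-2 mutant and 40559 to 42910 in wild type with vector. Of the 20, 13 averaged under 5 in the mutant and none did in wild type with vector. Of the 9 sperm markers 6 fell and none rose, with a median of -1.28, and 8 of the 9 averaged under 5 in the mutant. All 18 neuronal markers rose, by a median of 3.20. The part of this shift in the changes of rpl-11.1, rpl-11.2, rpl-25.1 and rpl-25.2 was not tested. Against wild type with RNAi the pmt-2 mutant was higher for 26 genes and lower for 7, where 27.7% of all probe sets were higher and 23.8% lower (51.5% in either direction). Without RNAi arrays 1, 2 and 3 in turn, 13, 28 and 19 genes were higher and 8, 5 and 5 lower. rpl-11.1 was lower by 2.20 and rpl-24.2 higher by 1.04 there, and rps-23 read 10.20, 10.58 and 10.38 in the mutant, against 9.84, 10.04 and 9.59 with RNAi, a change of 0.56 (SE 0.12, limma adjusted p = 0.00023).

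Genes around the ribosome were described by the same test, from lists written with earlier results of these data known. Of 8 genes listed as further components of the cytosolic ribosome 7 fell with RNAi in wild type. Among them were the stalk proteins rla-1 at -0.47 and rla-2 at -0.53 (limma adjusted p = 3.04e-05 and 2.2e-05). The list also held rpa-1 and rpa-2, which in *C. elegans* are genes of replication protein A, a DNA-binding complex. Its counts are therefore not of ribosome components alone. With RNAi in the ire-1 mutant the 2 falls of this list were those of rpa-1 and rpa-2, and 1 gene rose. The responses of rla-1, rla-2 and ubq-2 differed between the ire-1 mutant and wild type, by 0.47, 0.59 and 0.50. In the pmt-2 mutant the stalk gene rla-2 differed by -0.13 (limma adjusted p = 0.204). The replication protein A genes rpa-1 and rpa-2 fell by 2.02 and 1.16 there.

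Of 35 biogenesis and RNA polymerase I genes, 24 fell and 3 rose with RNAi in wild type, with a median of -0.52. fib-1, the methyltransferase fibrillarin of the nucleolus, fell by 1.01 and exos-3, a subunit of the RNA exosome, by 0.97. Given to the ire-1 mutant, RNAi left 11 of the 35 lower and 3 higher, with changes of -0.39 for fib-1 and -0.89 for exos-3. The responses of 7 differed between these genotypes, all higher in the ire-1 mutant, with fib-1 at 0.63 (SE 0.13, limma adjusted p = 0.00383). In the pmt-2 mutant 30 of the 35 fell and 4 rose, with a median of -1.51 and fib-1 at -2.73.

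Of 32 translation initiation factors 22 fell and 1 rose with RNAi in wild type, and 11 fell and 1 rose in the ire-1 mutant. eif-3.E, a subunit of eIF3, was the 1 factor whose response differed between the 2, by 0.42 (SE 0.11, limma adjusted p = 0.0247). ife-3, an eIF4E cap-binding protein, changed by -0.78 in wild type with RNAi and by -2.73 in the pmt-2 mutant, where 26 of the 32 fell and 3 rose. Of 9 elongation and release factors 5 fell and 2 rose with RNAi in wild type. iff-1 and iff-2, both eIF5A genes, went opposite ways there, at -0.73 and 0.70, and in the pmt-2 mutant at -3.93 and 0.92. iff-1 is known as the germ line gene of this pair.

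The 65 mitochondrial ribosomal protein genes gave a second ribosome to set beside the first. With RNAi in wild type 56 fell and 2 rose, by a median of -0.60, against the -0.18 of the cytosolic set. For ire-1 animals the counts were 20 and 1, with a median of -0.22, and 10 responses differed from wild type, all higher in the mutant, by a median of 0.35 over the 65. In the pmt-2 mutant 60 fell and 2 rose, with a median of -1.20, where the cytosolic set had 14 falls and a median of -0.04. With tunicamycin 1 of the 65 fell. The 2 sets were not tested against each other.

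The falls with RNAi in wild type were also counted with 1 array of wild type with RNAi left out at a time. They numbered 5 to 7 of the 8 genes listed as further ribosome components, rpa-1 and rpa-2 included, and 21 to 26 of the 35 biogenesis genes. For the other lists they numbered 18 to 22 of the 32 initiation factors, 4 to 5 of the 9 elongation and release factors and 51 to 54 of the 65 mitochondrial genes. The responses that were higher in the ire-1 mutant numbered 2 to 5 of the 8 listed genes, 5 to 9 biogenesis genes, 0 to 2 initiation factors and 6 to 15 mitochondrial genes.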

How the data were processed

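RMA was applied by the authors, as the submitters' processing notes name it without a version, and the sources used here give neither probe annotation nor genome build. The deposited log2 values per array were used for the 28387 probe sets that also stand in the authors' 12 tables of group means, and 930 others were left out. Those tables hold biweight averages, not plain means. The same averages recomputed from the arrays, and the SDs, matched within 0.005. The plain means used here differ from them, so the rebuilt limma gave other sizes as well as other counts. With RNAi in wild type rpl-25.1 rose by 1.09 there (0.89 here), rpl-7A changed by -0.79 (-0.65) and rps-23 by -0.73 (-0.79). RefSeq's gene table supplied other symbols, which differ for 16 of the 75 genes.

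limma 3.58.1 in R 4.3.3 fitted 1 mean per group (20 residual degrees of freedom, 24.3 with the prior), with 14 contrasts and an F test. The fit was tested on simulated data. The genes and all lists were chosen with earlier results of these data known. Named genes were, per comparison, the 3 largest rises and the 3 largest falls past the threshold, the 2 highest and 2 lowest signals per subunit, the 5 widest ranges over groups, the numbered pairs, the targeted genes and 2 genes per list. rpl-12, rps-6, rpa-1, rpa-2, ubq-2 and the later genes of the ire-1 difference were named after their values were seen. Figures used Python 3.11.15 and matplotlib 3.10.9. Alternatives were array-median centring, probe sets of mean 5 or more (10325), variance of the compared groups alone, a replicate block, limma rebuilt from the deposited means and SDs, and leaving out each array. Same-numbered arrays correlated between -0.19 and 0.53 in their deviations. For RNAi in wild type the values were 0.38, 0.53 and 0.07, against means of -0.14, -0.31 and -0.02 with arrays of other numbers. With the replicate block 39 genes passed in that comparison, against 36 without it. In no comparison did all 3 pairs pass 0.1, so the numbers were not taken to pair arrays.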

Additional observations from a re-analysis of the deposited data

Results flagged for a closer look

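For 24 genes the response to pmt-2 RNAi differed between the ire-1 mutant and wild type by limma's test of the difference itself. The difference was 0.78 for rpl-7A, 0.67 for rpl-41, 0.66 for rpl-23, 0.56 for rpl-35, 0.53 for rpl-43 and rpl-29, 0.52 for rpl-14, 0.46 for rpl-1, 0.43 for rpl-12, 0.38 for rpl-10 and 0.34 for rpl-36 in the large subunit. In the small subunit it was 0.63 for rps-23, 0.60 for rps-21, 0.58 for rps-22, 0.54 for rps-13, 0.53 for rps-16, 0.49 for rps-19, 0.47 for rps-18, 0.45 for rps-5, 0.43 for rps-2, 0.42 for rps-17, 0.39 for rps-7 and 0.38 for rps-14 and rps-25. All 24 were higher in the mutant, and the shallower pmt-2 knock-down there stands beside them in its values above.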

How the results depend on the processing

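Of 47 values of named genes in single comparisons, 33 kept direction and call in every alternative tried, none changed sign, and of 530 recomputed values 47 lost the call. Counts of genes past the threshold moved by over 1.5 times as follows, and the cause was not tested where no construction shows it. The variance of the compared groups alone rests on fewer arrays and on those groups' own spread. With it the count was 10 for RNAi in wild type (36 in the fit over all groups) and 19 for RNAi in the atf-6 mutant (36). It was 3 for the difference of the ire-1 mutant (24), 6 for tunicamycin against RNAi (27) and 14 for the pmt-2 mutant against RNAi (33). For tunicamycin (3) and the ire-1 mutant with vector (7) it was 0. It moved less for RNAi in the pek-1 mutant, to 32 (40), for RNAi in the ire-1 mutant, to 11 (15), and for the pmt-2 mutant, to 13 (17). Why some counts fell further was not tested. Centring each array on its median gave 6 for tunicamycin, 33 for the pmt-2 mutant (17) and 13 for the ire-1 mutant with vector. Probe sets of mean 5 or more, which adjusts over fewer tests and leaves out rpl-29 and rpl-42, gave 10 for tunicamycin, 15 for the ire-1 mutant with vector and 24 for RNAi in the ire-1 mutant (15). limma rebuilt from the deposited means and SDs gave 2 for the ire-1 mutant with vector, 9 for RNAi in the ire-1 mutant and 9 for the difference of the ire-1 mutant. The replicate block gave 5 for tunicamycin and moved no other count by over 1.5 times. Leaving out 1 array gave 33 to 39 for RNAi in wild type, 33 to 35 in the atf-6 mutant, 9 to 15 in the ire-1 mutant and 33 to 39 in the pek-1 mutant. It gave 9 to 30 for the difference of the ire-1 mutant, 1 to 3 for tunicamycin, 13 to 21 for the pmt-2 mutant, 1 to 7 for the ire-1 mutant with vector, 19 to 28 for tunicamycin against RNAi, 21 to 33 for the pmt-2 mutant against RNAi and 45 to 55 for the F test. The arrays that moved a count were tunicamycin array 3 (1 gene left); wild type with vector array 2 (3) and ire-1 mutant with vector arrays 1 and 3 (2 and 1) for that mutant with vector; ire-1 mutant with vector array 1 and with RNAi arrays 2 and 3 (9 each) for RNAi in that mutant; and wild type with RNAi array 1 (21) for the pmt-2 mutant against RNAi. For the difference of the ire-1 mutant 8 of the 12 arrays of the 4 groups did so. Without wild type with vector array 2 the count was 9, without wild type with RNAi arrays 1 and 3 it was 10 and 11, without ire-1 mutant RNAi arrays 1, 2 and 3 it was 12, 15 and 12, and without its vector arrays 1 or 3 it was 13. Leaving arrays of wild type with RNAi out of the counts for gene lists was chosen after seeing the data. At 2 probe sets near the array median, rpl-29 and rpl-42, low signal limits what can be read.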
